A study of Mus musculus with 16 samples.

Results

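Transcripts of 35 genes of glycolysis, of pyruvate use and of the pentose phosphate pathway were followed in MPP3 and MPP4 cells of mouse bone marrow, in 16 libraries of 8 mice. The genes were taken by name from a list and matched through their Ensembl identifiers, and all 35 were found among the 47937 gene rows of the count tables. They comprised 2 glucose transporters, 3 hexokinases, 7 genes of upper glycolysis, 8 of lower glycolysis, 2 lactate dehydrogenases, 6 genes of pyruvate dehydrogenase and its kinases, 3 of the oxidative and 4 of the non-oxidative pentose phosphate pathway. A mean above 100 counts in at least 1 of the 4 groups was reached by 34 of them, and these 34 were among the 11831 genes tested. The neuronal enolase Eno2 was below that limit, with 4 to 45 counts per library, and was not tested.

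Both populations are multipotent progenitors of the marrow, MPP3 biased to myeloid and MPP4 to lymphoid fates. Both were sorted from lineage-depleted marrow as Sca1+ Kit+ cells without CD150 and with CD48, and MPP4 also carried Flt3. All mice were C57BL/6. Mice labelled WT were Ebf1fl/fl Tie2Cre+/+, which reads as floxed alleles without Cre, and were 12, 11, 12 and 11 weeks old. Mice labelled KO were Ebf1fl/fl Tie2Cre +/cre and were 10, 9, 11 and 11 weeks old. Each genotype had 2 females and 2 males, and each mouse gave 1 library of each population. The design text of the series instead describes the WT mice as unfloxed with Tie2Cre, which was not resolved here. If the sample labels hold, an effect of Cre itself cannot be told apart from that of the Ebf1 deletion. Tie2Cre is active in endothelium as well as in blood stem cells, so recombination was not limited to blood cells. The product of Ebf1 is a transcription factor needed for B cells.

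Glycolysis splits glucose into pyruvate in the cytosol. Hexokinases trap glucose in the cell, phosphofructokinases catalyse the committed step, and enolases and pyruvate kinase act near the end. Pyruvate is then reduced to lactate by lactate dehydrogenase or enters mitochondrial metabolism through pyruvate dehydrogenase, which the Pdk kinases switch off. The pentose phosphate pathway branches off at glucose phosphate and yields NADPH in its oxidative arm and ribose phosphate for nucleotides. Haematopoietic stem cells are known for reliance on glycolysis and for expression of Pdk genes, while cycling progenitors use more mitochondrial respiration.

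The libraries held 24823708 to 48703193 counts. Flt3 was at 204.5 to 312.8 normalised CPM (counts scaled to the normalised library size) in the MPP3 and at 938.5 to 1362.5 in the MPP4 libraries, which followed the gates. Kit, which both gates required, was higher in MPP3 (0.51 ± 0.07 on the log2 scale in WT, edgeR FDR 5.81e-05, and 0.71 ± 0.07 in KO, FDR 1.66e-06). The count of Ebf1 did not follow the genotype label: it was at 0.15, 0.828, 2.19 and 2.07 CPM in MPP3 WT, at 0.602, 0.199, 2.23 and 0.151 in MPP3 KO, at 4.41, 3.32, 4.11 and 6.19 in MPP4 WT and at 23.6, 24.9, 18.1 and 17.6 in MPP4 KO. All 4 MPP4 libraries labelled KO lay above the 4 labelled WT (log2 fold change 2.22 ± 0.64, edgeR FDR 0.188, and 0.021 by limma voom with the mouse as a block). A count over the gene does not separate intact from recombined transcripts, so it does not check the labels. Of 9 listed genes of B and plasma cells, 6 were tested, and edgeR called 0 of them between the genotypes. In MPP3, 4 of these 6 were lower in every KO library than in any WT library (2.41% of all genes tested were), and in MPP4 2 of 6 were, Cd79a and Igkc (4.44% of all genes), while the groups overlapped for Cd79b and Sdc1 in both populations. Directions between genotypes rest on the labels.

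The members spanned a wide range of levels. Compared per length, as normalised CPM per kb of exon, the mean over the 16 libraries was highest for Pkm (pyruvate kinase, 339.7), followed by Ldha (lactate dehydrogenase A, 308.5), Aldoa (aldolase A, 250.4), the pentose phosphate enzyme Taldo1 (transaldolase, 203.9), Gapdh (198) and Eno1 (enolase, 186). Neighbours in that order were not separated: Pkm ranged from 310.0 to 377 over the libraries and Ldha from 262.5 to 363, while Taldo1, Gapdh, Eno1 and Tpi1 had overlapping ranges. Among the rate-limiting steps, Pfkl was at 54.5, Hk3 at 48.1 and Hk1 at 29.2 CPM per kb. The 2 glucose transporters were lower, at 11.4 (Slc2a1) and 10.6 (Slc2a3). The lowest tested members were Hk2 (5.72), Pfkp (5.38), Eno3 (5.38), Aldoc (3.64) and Rpia (3.05), and Eno2 was at 0.112. The length of Pfkp was the union of annotated exons, 13401 bases, which lowers its level on this scale relative to a shorter transcript. The order depends on the length: per kb of the longest principal transcript, a length chosen after seeing the data, Pkm (698.6) and Ldha (578.2) stayed highest, but Gapdh (577) and Eno1 (493) came before Aldoa (482) and Taldo1 (360.1).

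**Figure D1:**
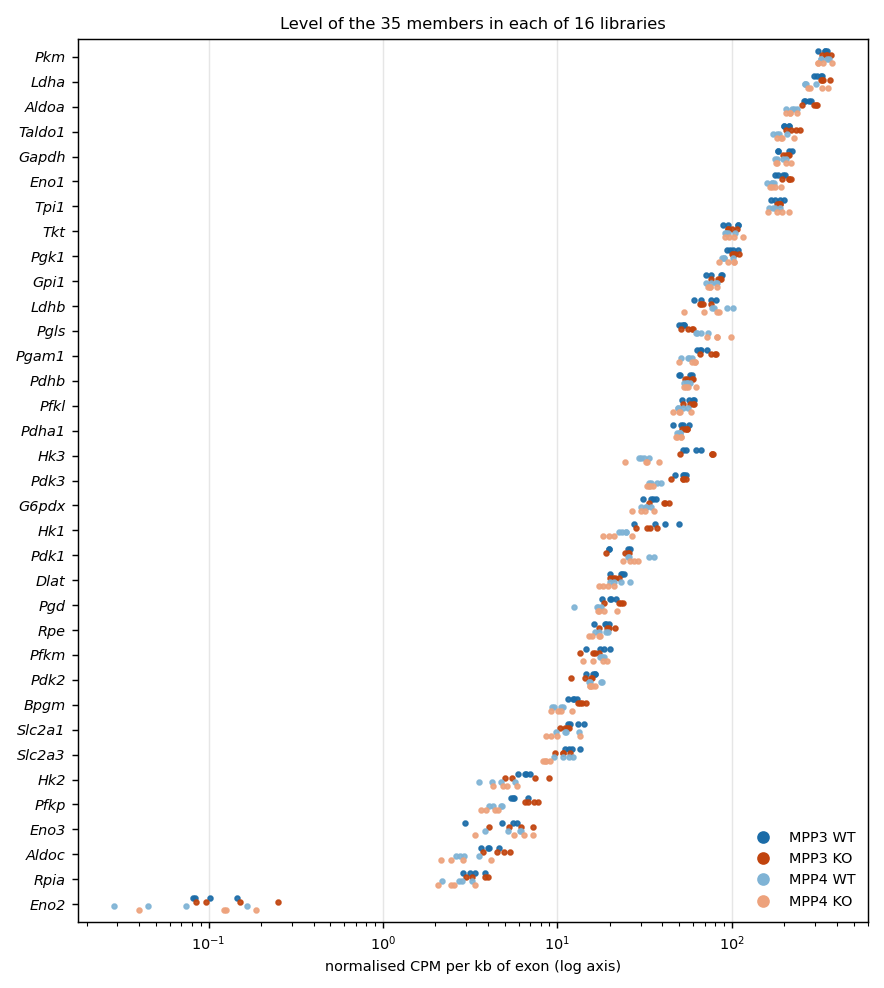
Normalised CPM per kb of exon (log axis) of the 35 members in each of the 16 libraries, with a point per library coloured by group and members ordered by their mean. Pkm is at the top (mean 339.7) and Eno2 at the bottom (mean 0.112), and Hk3, Pdk3 and Hk1 show MPP3 and MPP4 libraries apart.

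The main comparison asked which steps differ between the 2 populations, in WT and separately in KO mice. In WT, 12 of the 34 members were called at an FDR under 0.1 (edgeR), 10 higher and 2 lower in MPP3, which is 35.3% of the members beside a background of 15.1% of all 11831 genes (6.8% higher and 8.33% lower). In KO, 13 were called, 12 higher and 1 lower, which is 38.2% beside a background of 17.9% (8.71% higher and 9.18% lower). The background was not matched to the members' levels, and the number of counts bears on how small a difference is called. An unadjusted p under 0.05 was reached by 15 members in WT (background 22.1%) and 17 in KO (background 25.4%). The median log2 fold change (MPP3 over MPP4) of the members was 0.12 in WT and 0.16 in KO, beside medians over all genes of 0.00 and -0.01. Called in both genotypes were Hk1, Hk3, Pfkp, Aldoa, Pgam1, Bpgm, Eno1 and Pdk3, all higher in MPP3, and Pgls, lower in MPP3. With the mouse as a block, 17 members were called in WT and 21 in KO, beside backgrounds of 24.8% and 28.3%, and 16 were called in both genotypes. How many of all genes were called in both genotypes was not counted, so the numbers called in both lack a background. The WT count fell to 7 without MPP4 WT replicate 3 or without MPP4 WT replicate 4. In bulk RNA, a lower share of cells that express a gene and less of its RNA per cell cannot be told apart.

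**Figure D2:**
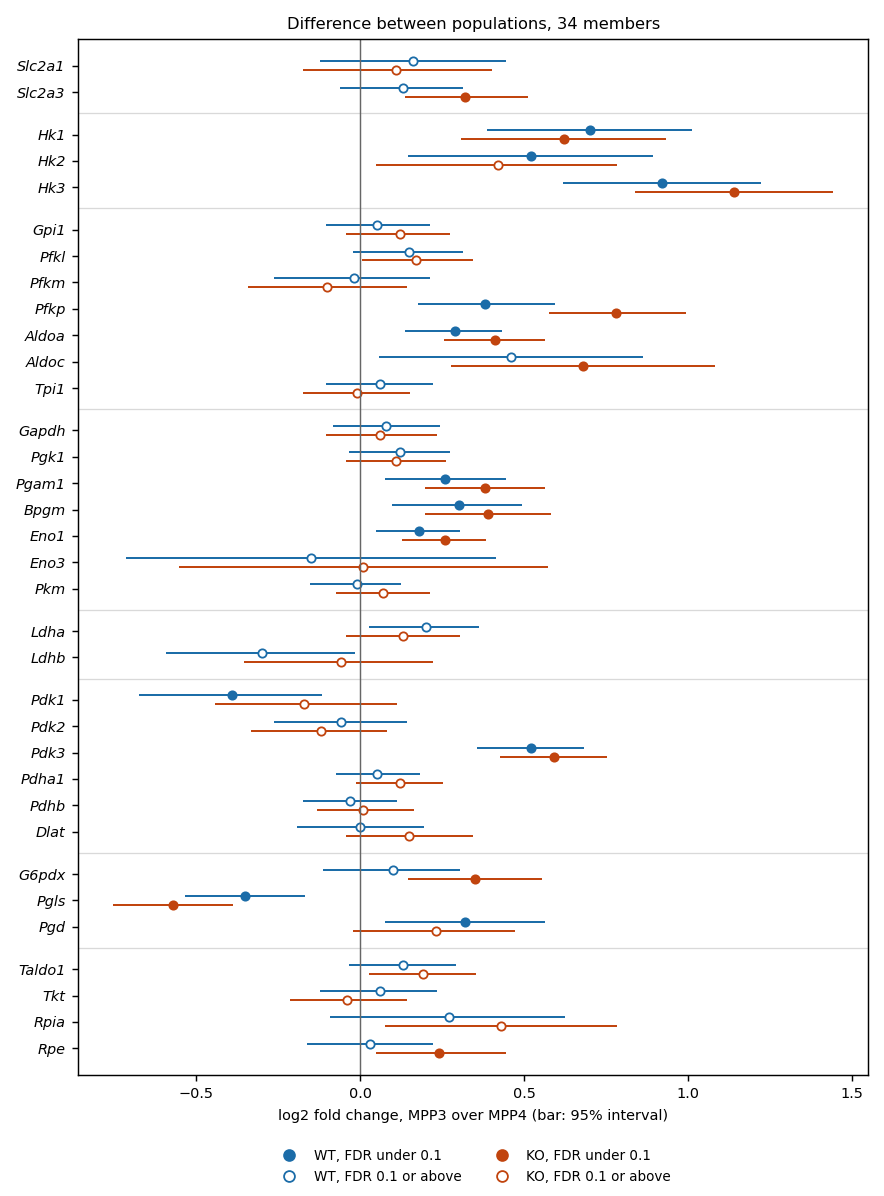
Log2 fold change of MPP3 over MPP4 for the 34 tested members, ordered by role in WT (blue) and KO (red), with bars for 95% intervals of the edgeR fit and filled points for an FDR under 0.1. Hk3 lies farthest to the right (0.92 in WT and 1.14 in KO) and Pgls is at -0.35 and -0.57, while Gapdh, Pkm, Tkt and the subunits of pyruvate dehydrogenase lie near 0.

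The starts of 4 of these genes are printed because 3 had the lowest FDR among members higher in MPP3 of KO mice (Hk3, Pfkp and Pdk3) and Pgls was the member called lower in both genotypes without the block. Shown are the 250 bases before the RefSeq start of each gene (build GRCm38.p6), 5′ to 3′ on the strand of the gene. Capitals mark matches on either strand to ACGTG or GCGTG, the core letters of the hypoxia response element, and to GAGGAA, the core of sites for the myeloid factor PU.1.
Hk3 (chr13:55021386-55021635, minus strand): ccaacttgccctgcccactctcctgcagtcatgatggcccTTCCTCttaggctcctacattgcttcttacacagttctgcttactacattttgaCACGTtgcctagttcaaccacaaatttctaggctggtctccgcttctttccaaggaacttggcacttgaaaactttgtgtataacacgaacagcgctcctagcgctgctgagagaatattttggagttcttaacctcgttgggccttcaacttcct
Pfkp (chr13:6648772-6649021, minus strand): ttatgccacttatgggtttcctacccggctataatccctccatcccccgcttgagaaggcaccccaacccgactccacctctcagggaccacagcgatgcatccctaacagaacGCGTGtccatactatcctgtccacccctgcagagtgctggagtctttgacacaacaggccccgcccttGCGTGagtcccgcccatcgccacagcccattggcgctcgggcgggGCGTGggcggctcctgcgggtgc
Pdk3 (chrX:93832151-93832400, minus strand): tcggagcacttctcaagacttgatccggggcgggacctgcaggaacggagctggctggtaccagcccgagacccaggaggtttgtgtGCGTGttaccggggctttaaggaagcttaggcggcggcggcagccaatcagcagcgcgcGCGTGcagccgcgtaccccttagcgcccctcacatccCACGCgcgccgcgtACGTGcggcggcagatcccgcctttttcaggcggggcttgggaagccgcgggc
Pgls (chr8:71591934-71592183, plus strand): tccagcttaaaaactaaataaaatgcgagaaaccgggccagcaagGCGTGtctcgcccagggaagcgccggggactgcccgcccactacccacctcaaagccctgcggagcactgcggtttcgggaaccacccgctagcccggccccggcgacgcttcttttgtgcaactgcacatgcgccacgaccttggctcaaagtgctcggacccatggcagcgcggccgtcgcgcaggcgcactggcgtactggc
Hk3 held 1 match to ACGTG and 1 to GAGGAA, Pfkp held 3 to GCGTG, Pdk3 held 1 to ACGTG and 3 to GCGTG, and Pgls held 1 to GCGTG. RefSeq windows were at hand for 34 of the 35 members. Of these 34, 73.5% held ACGTG or GCGTG, beside 38.6% of the windows of all 27025 genes, and 26.5% held GAGGAA beside 23.1%. The E-box CACGTG, which contains ACGTG, was in 8.82% of the members' windows and in 6.05% of all windows. An EBF site, searched as TCCC and GGGA with 2 bases between them, was in 0 of the 34 and in 0.788% of all windows. The members' windows were richer in G and C (median 59.4%) than all windows (52.0%). A match is a run of letters, and binding was not measured.

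Of the 34 members, Hk3 had the largest log2 fold change in both genotypes. Hk3 (ENSMUSG00000025877, chromosome 13, 55005985 to 55021385), a hexokinase of myeloid cells, was at 244, 201, 194 and 229 normalised CPM in MPP3 WT and at 116, 123, 108 and 111 in MPP4 WT. In KO mice it was at 185, 281.5, 282 and 288 in MPP3 and at 90.1, 119.9, 142 and 118 in MPP4. Every MPP3 library lay above every MPP4 library of its genotype. The log2 fold change was 0.92 ± 0.14 (SE) in WT (edgeR FDR 0.000247), a fold of 1.89, and 1.14 ± 0.14 in KO (FDR 2.62e-05), a fold of 2.21. Exons of Unc5a overlap Hk3 on the other strand, and Unc5a was at no more than 7.25 CPM in any library.

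Hk1 (ENSMUSG00000037012, chromosome 10, 62268855 to 62379908), the widely expressed hexokinase that binds mitochondria, was at 422, 355, 235 and 309 CPM in MPP3 WT and at 199.8, 211, 192 and 210.3 in MPP4 WT. Libraries of KO mice were at 239.9, 317, 279 and 290.2 CPM in MPP3 and at 156, 179.5, 227 and 169 in MPP4. The populations did not overlap within either genotype. Hk1 was higher in MPP3 by 0.70 ± 0.15 on the log2 scale in WT (edgeR FDR 0.00363) and by 0.62 ± 0.15 in KO (FDR 0.00775). Hk2, the inducible hexokinase, was called in WT (0.52 ± 0.17, FDR 0.0652; 39.0 ± 2.5 CPM in MPP3 and 27.2 ± 5.35 in MPP4, SD, n = 4). That call was lost without any 1 of MPP3 WT replicates 1, 2 and 4 and MPP4 WT replicates 3 and 4 (FDR 0.117 to 0.193). In KO Hk2 had a log2 fold change of 0.42 ± 0.17 (FDR 0.132), which was called with the mouse as a block (FDR 0.0335) and without MPP3 KO replicate 1 or 2 or MPP4 KO replicate 4 (FDR 0.0527 to 0.0955). Summed over the 3 genes, hexokinase transcripts ranged from 86.2 to 123 CPM per kb in MPP3 WT and from 56.2 to 63.8 in MPP4 WT, and from 83.4 to 121 and from 47.1 to 69.9 in KO.

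Of the transporters, which carry glucose across the plasma membrane, Slc2a3 was called in KO (0.32 ± 0.09, edgeR FDR 0.0189) and not in WT (0.13 ± 0.09, FDR 0.444). Its range was 70.5 to 85.5 CPM in MPP3 KO and 60.1 to 65.5 in MPP4 KO. Leaving out both libraries of mouse KO2 ended the KO call (FDR 0.131). Slc2a1 had log2 fold changes of 0.16 (95% interval -0.12 to 0.44) in WT and 0.11 (-0.17 to 0.40) in KO.

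In upper glycolysis, Pfkp and Aldoa were called in both genotypes. Pfkp (ENSMUSG00000021196, chromosome 13, 6579768 to 6648777), the platelet-type phosphofructokinase, was at 91.0, 75.4, 72.3 and 74.4 CPM in MPP3 WT and at 54.1, 64.1, 57.4 and 64.5 in MPP4 WT. In KO mice it was at 91.4, 87.0, 103 and 97.8 CPM in MPP3 and at 61.0, 52.6, 48.6 and 58.4 in MPP4. The populations did not overlap, and the distance was wider in KO (log2 fold change 0.78 ± 0.10, edgeR FDR 2.71e-05) than in WT (0.38 ± 0.10, FDR 0.0145). The WT call was lost without mouse WT1 (FDR 0.126). The test of that widening is given with the interaction. Exons of Pitrm1 overlap Pfkp on the other strand, and Pitrm1 was at 125.4 to 170.6 CPM, above Pfkp, with log2 fold changes of 0.17 ± 0.08 in WT (edgeR FDR 0.188) and 0.16 ± 0.08 in KO (FDR 0.199). Without known strand use, reads of overlapping exons cannot be told apart. The liver-type Pfkl, the main phosphofructokinase by level, had log2 fold changes of 0.15 ± 0.08 in WT and 0.17 ± 0.08 in KO (FDR 0.3 and 0.172). Both were called with the mouse as a block (FDR 0.0707 and 0.0274), and the KO value also without MPP4 KO replicate 2 (FDR 0.0457). The muscle-type Pfkm was at -0.02 (95% interval -0.26 to 0.21) in WT and at -0.10 (-0.34 to 0.14) in KO. The limit of overlapping exons holds for Pfkm too. Senp1, on the other strand, was at 83.3 to 110.0 CPM, with -0.01 ± 0.09 in WT and -0.09 ± 0.09 in KO. Gm26513, on the same strand, was at no more than 1.43 CPM.

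Aldoa (ENSMUSG00000030695, chromosome 7, 126795234 to 126800751), which splits fructose bisphosphate, was at 764, 808, 752.5 and 831 CPM in MPP3 WT and at 594, 663, 641 and 687 in MPP4 WT. Libraries of KO mice were at 733, 859.5, 900.5 and 883 in MPP3 and at 598, 691, 631 and 624 in MPP4. MPP3 lay above MPP4 throughout, by 0.29 ± 0.07 on the log2 scale in WT (edgeR FDR 0.0107) and 0.41 ± 0.07 in KO (FDR 0.000589). Its isoenzyme Aldoc, at 6.98 to 17.5 CPM in the libraries, was called in KO (0.68 ± 0.19, FDR 0.0235). Without mouse KO1 or without mouse KO4 that call was lost (FDR 0.103 to 0.145). In WT, Aldoc had 0.46 ± 0.19 (FDR 0.146), which was called with the mouse as a block (FDR 0.0693) and without MPP4 KO replicate 2 (FDR 0.0668). Gpi1, the isomerase of glucose phosphate, had intervals of -0.10 to 0.21 in WT and -0.04 to 0.27 in KO (called in KO with the block, FDR 0.0876), and the triose isomerase Tpi1 of -0.10 to 0.22 and -0.17 to 0.15.

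In lower glycolysis, 3 of the 7 tested members were called in both genotypes, and none was called lower in MPP3. That is 42.9% in each genotype, beside 15.1% of all genes in WT and 17.9% in KO. Pgam1 (ENSMUSG00000011752, chromosome 19, 41911923 to 41918660), a phosphoglycerate mutase, was at 131, 132, 125 and 143 CPM in MPP3 WT and at 112, 118, 102 and 111 in MPP4 WT. In KO mice it was at 130.3, 161, 158.5 and 149.6 CPM in MPP3 and at 99.4, 122, 117.5 and 122 in MPP4. The groups did not overlap, and the log2 fold changes were 0.26 ± 0.08 (edgeR FDR 0.0562) in WT and 0.38 ± 0.08 (FDR 0.00487) in KO. In WT the call was lost without MPP3 WT replicate 4 or MPP4 WT replicate 3 or 4 (FDR 0.106 to 0.165).

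Bpgm (ENSMUSG00000038871, chromosome 6, 34476207 to 34505613), the bisphosphoglycerate mutase best known from red cells, was at 44.6, 44.1, 46.6 and 41.4 CPM in MPP3 WT and at 37.6, 33.6, 38.5 and 34.2 in MPP4 WT. Libraries of KO mice were at 52.0, 48.0, 47.3 and 49.4 in MPP3 and at 32.8, 36.4, 37.5 and 43.3 in MPP4. It was higher in MPP3 by 0.30 ± 0.09 on the log2 scale in WT (edgeR FDR 0.0466) and by 0.39 ± 0.09 in KO (FDR 0.00756), without overlap. The WT call was lost without MPP3 WT replicate 3 or MPP4 WT replicate 2 or 4 (FDR 0.119 to 0.124). Of 10 erythroid markers, 6 were tested, and of these 1 was called higher in MPP3 in WT, and 2 higher and 1 lower in KO. Their summed level was 67.5 to 124 CPM in MPP3 WT, 47.8 to 88.3 in MPP4 WT, 64.5 to 91.5 in MPP3 KO and 45.4 to 138 in MPP4 KO. The erythroid gene Alas2, of haem synthesis, was at no more than 1.92 CPM in any library, while Tfrc reached 47.6 and Hbb-bs 37.7. In WT, Car1 was at 14.0 to 24.8 CPM in MPP3 and at 4.26 to 10.5 in MPP4. Of the 6 tested markers, 5 had a log2 fold change above 0 in WT and 3 in KO. The part of erythroid cells in the values of Bpgm was not tested.

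Eno1 (ENSMUSG00000063524, chromosome 4, 150236721 to 150248879), the main enolase, was at 1062, 948, 993 and 1084 CPM in MPP3 WT and at 910.3, 933, 857 and 913 in MPP4 WT. In KO mice it was at 1039, 1149, 1147 and 1181 in MPP3 and at 917, 1025, 886 and 951 in MPP4. The distance was small beside that of the hexokinases, yet the groups did not overlap: 0.18 ± 0.06 on the log2 scale in WT (edgeR FDR 0.0676) and 0.26 ± 0.06 in KO (FDR 0.00734). The WT call ended when replicate 1 or 4 of MPP3 WT or replicate 1, 3 or 4 of MPP4 WT was left out (FDR 0.111 to 0.193). The 95% intervals of the uncalled members were narrow for Gapdh (-0.08 to 0.24 in WT and -0.10 to 0.23 in KO), Pgk1 (-0.03 to 0.27 and -0.04 to 0.26) and Pkm (-0.15 to 0.12 and -0.07 to 0.21), so a population difference of the size seen for Hk1 lay outside them. Eno3, the muscle enolase at 5.15 to 12.6 CPM, was less precise (-0.71 to 0.41 in WT and -0.55 to 0.57 in KO).

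Of the 35 members, 10 had at least 1 other annotated gene with an aligned stretch of at least 200 bases at 95% identity. For Gapdh, 74 such genes took 6.17% of the counts of Gapdh and its copies together, and for Eno1 3 genes took 1.88%. For the others with copies the share was at most 1.04%. How reads matching several genes were treated is not given in the sources used here, so levels of genes with copies are uncertain to that extent.

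The Pdk kinases, which inhibit pyruvate dehydrogenase, moved in opposite directions in WT. Pdk3 (ENSMUSG00000035232, X chromosome, 93764607 to 93832201) was at 136, 120.3, 140.3 and 135 CPM in MPP3 WT and at 101, 94.7, 88.3 and 86.1 in MPP4 WT. Libraries of KO mice were at 140.4, 115, 134 and 134.5 in MPP3 and at 86.3, 90.1, 83.8 and 87.1 in MPP4. No library overlapped, and the log2 fold changes were 0.52 ± 0.08 (edgeR FDR 0.000145) in WT and 0.59 ± 0.08 (FDR 3.68e-05) in KO. Each genotype group held 2 females and 2 males, and females and males of MPP3 both lay above those of MPP4.

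Pdk1 (ENSMUSG00000006494, chromosome 2, 71873224 to 71903858), a target of the hypoxia-inducible factor HIF, went the other way. It was at 154, 153, 198 and 204 CPM in MPP3 WT and at 199, 197, 259 and 278 in MPP4 WT, so the groups overlapped although each mouse had less in MPP3. In KO mice it was at 199.9, 197, 189 and 149 in MPP3 and at 225, 202, 212 and 185 in MPP4. The log2 fold change was -0.39 ± 0.13 (edgeR FDR 0.0652) in WT and -0.17 ± 0.13 (FDR 0.499) in KO, and with the mouse as a block -0.39 ± 0.05 (FDR 0.000114) and -0.17 ± 0.05 (FDR 0.0298). Without the block, the WT call was lost when MPP3 WT replicate 1 or 2 or MPP4 WT replicate 3 or 4 was left out (FDR 0.157 to 0.217). Pdk2 was at 50.7, 52.0, 46.2 and 52.3 CPM in MPP3 WT, at 56.8, 47.9, 48.4 and 56.0 in MPP4 WT, at 45.4, 37.8, 50.0 and 48.9 in MPP3 KO and at 48.3, 52.1, 48.6 and 49.6 in MPP4 KO. Its log2 fold changes, -0.06 ± 0.09 and -0.12 ± 0.09, were within the spread.

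The make-up of each isoenzyme family was described as the share of summed CPM per kb, with no test. Pdk3 was 57.3% ± 1.86 (SD, n = 4) of the kinases in MPP3 WT and 43.9% ± 4.52 in MPP4 WT, and 57.3% ± 2.37 and 44.6% ± 1.51 in KO. Pdk1 was 25.1% ± 2.46 and 36.1% ± 5.15 in WT. Hk3 was the largest part of the hexokinases, at 56.9% ± 3.92 in MPP3 WT, 52.3% ± 0.476 in MPP4 WT, 63.6% ± 2.34 in MPP3 KO and 54.5% ± 1.70 in MPP4 KO. The share of Pfkp among phosphofructokinases was 7.23% ± 0.641 in MPP3 WT, 8.81% ± 0.720 in MPP3 KO, 6.04% ± 0.282 in MPP4 WT and 5.76% ± 0.970 in MPP4 KO. Aldoa made up 98.1% to 99.0% of the aldolases and Eno1 96.2% to 98.5% of the enolases in every library. The shares depend on the length used: without length, Hk3 averaged 37.6% of the hexokinases over the libraries, against 56.8% with it, and Hk1 was then the largest part.

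**Figure D3:**
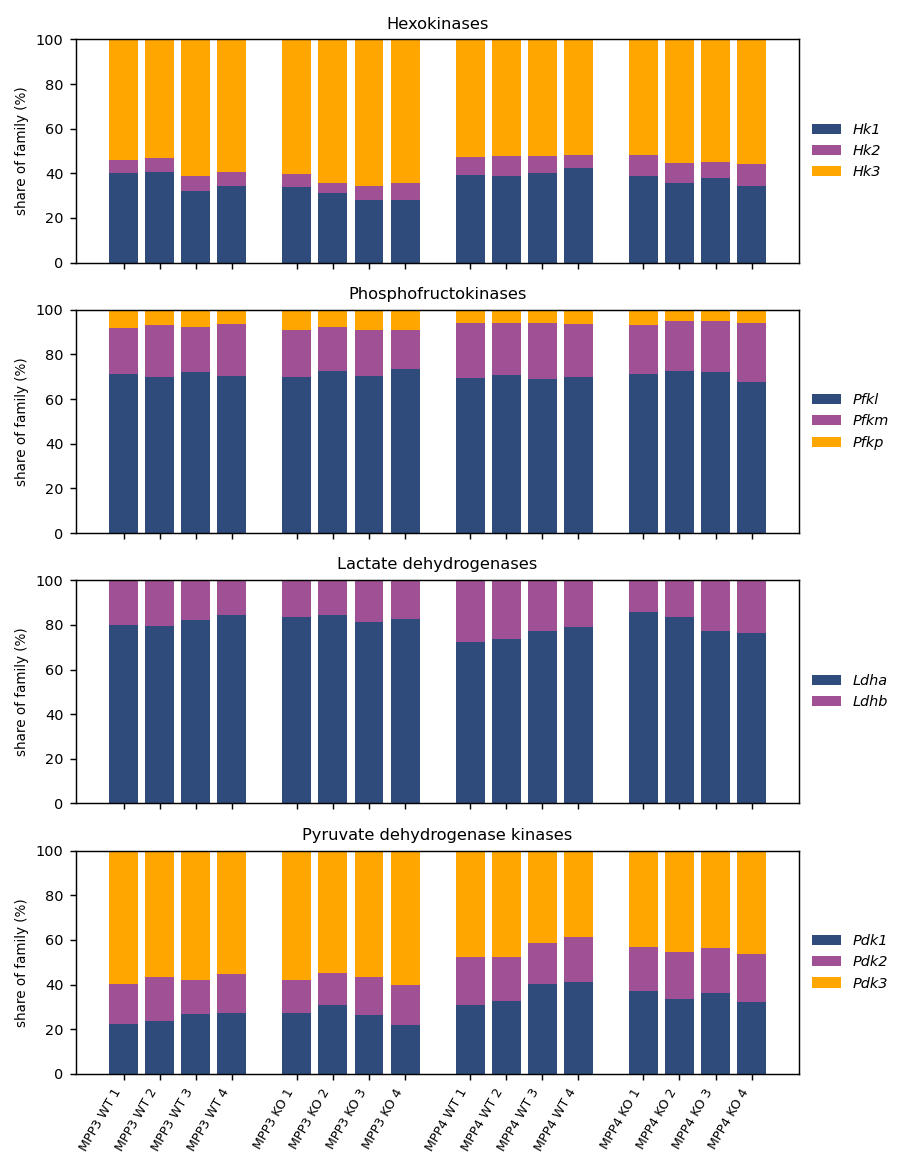
Share (%) of each isoenzyme in the summed normalised CPM per kb of its family, as stacked bars for each of the 16 libraries, for hexokinases, phosphofructokinases, lactate dehydrogenases and pyruvate dehydrogenase kinases. Pdk3 takes 54.6% to 60.3% of the kinases in the MPP3 libraries and 38.6% to 47.8% in the MPP4 libraries.

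The lactate dehydrogenases also had opposite signs in WT, and neither was called with group means alone. Ldha, which favours lactate formation, had a log2 fold change of 0.20 ± 0.08 in WT (edgeR FDR 0.140), called with the block (FDR 0.00897), with sex or age as a term and without MPP4 WT replicate 4 or MPP4 KO replicate 2 (FDR 0.0781 to 0.084). Ldhb, which favours pyruvate, had -0.30 ± 0.13 (FDR 0.184), called with the block (FDR 0.0194), with sex as a term and without MPP4 KO replicate 1 (FDR 0.0945). Ldha ranged from 974 to 1092 CPM in MPP3 WT and from 869 to 1002 in MPP4 WT, and Ldhb from 95.6 to 128 and from 120.2 to 159.8. In KO, Ldha had 0.13 ± 0.08 (FDR 0.361, and 0.0551 with the block) and Ldhb -0.06 (95% interval -0.35 to 0.22). The subunits of pyruvate dehydrogenase, which turns pyruvate into acetyl-CoA, stayed within narrow intervals. Those of Pdha1 were -0.07 to 0.18 in WT and -0.01 to 0.25 in KO, those of Pdhb -0.17 to 0.11 and -0.13 to 0.16, and those of Dlat -0.19 to 0.19 and -0.04 to 0.34.

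In the oxidative pentose phosphate arm, neighbouring steps differed in direction. Pgls (ENSMUSG00000031807, chromosome 8, 71592176 to 71601092), the lactonase of the middle step, was at 202, 200.1, 187 and 194 CPM in MPP3 WT and at 235, 249.8, 237 and 276.5 in MPP4 WT. Libraries of KO mice were at 193, 222, 227 and 212 in MPP3 and at 311, 372, 309 and 272.5 in MPP4. It was called lower in MPP3 in both genotypes (with the mouse as a block, so was Pdk1), by -0.35 ± 0.08 on the log2 scale in WT (edgeR FDR 0.0106) and -0.57 ± 0.08 in KO (FDR 0.000183), and no library overlapped. Exons of Fam129c, a gene of B cells, overlap Pgls on the same strand. Fam129c was at 0.939 to 3.97 CPM in MPP3 WT, 2.1 to 3.88 in MPP4 WT, 1.99 to 4.63 in MPP3 KO and 4.82 to 7.82 in MPP4 KO.

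G6pdx, the enzyme that commits glucose phosphate to the pathway, was called higher in MPP3 in KO (0.35 ± 0.10, edgeR FDR 0.0201) and had 0.10 ± 0.10 in WT (FDR 0.64). It ranged from 103 to 134 CPM in MPP3 KO and from 82.5 to 109.8 in MPP4 KO, and the call was lost without mouse KO4 (FDR 0.122). Ikbkg, whose exons overlap G6pdx on the other strand, was at 56.5 to 82.1 CPM and had 0.06 ± 0.10 in KO (FDR 0.794). Pgd, the NADPH-forming enzyme after Pgls, was called higher in MPP3 in WT (0.32 ± 0.12, FDR 0.0922), a call lost in 10 of the 16 fits without 1 library (FDR 0.101 to 0.267). Those fits left out 1 of replicates 1, 2 and 4 of MPP3 WT, replicates 2 and 3 of MPP3 KO, replicates 1, 3 and 4 of MPP4 WT and replicates 1 and 4 of MPP4 KO. In KO Pgd had 0.23 ± 0.12 (FDR 0.236, and 0.0402 with the block).

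Of the 4 non-oxidative genes, which interconvert sugar phosphates, Rpe was called higher in MPP3 in KO only (0.24 ± 0.09, edgeR FDR 0.098), and that call was lost in 10 of the 16 fits without 1 library (FDR 0.1 to 0.246). These left out 1 of replicates 2 and 4 of MPP3 WT, replicates 2, 3 and 4 of MPP3 KO, replicates 2 and 4 of MPP4 WT and replicates 1, 2 and 3 of MPP4 KO. Kansl1l overlaps Rpe on the other strand and was lower in MPP3 (FDR 0.0745 in KO). Taldo1 was called with the block in both genotypes (0.13 ± 0.05 with FDR 0.06 and 0.19 ± 0.05 with FDR 0.00878) and in KO also without MPP3 KO replicate 1 or MPP4 KO replicate 2 (FDR 0.0272 to 0.0692). Rpia in KO (0.43 ± 0.17, FDR 0.108) was called with the block (FDR 0.0925) and when replicate 1 of MPP3 KO, replicate 4 of MPP4 WT or replicate 2 of MPP4 KO was left out (FDR 0.0326 to 0.0941). Transketolase, Tkt, had intervals of -0.12 to 0.23 in WT and -0.21 to 0.14 in KO.

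Since each mouse gave both populations, the difference was also read within each mouse. Of the 34 members, 16 were higher in MPP3 in 8 of 8 mice and 2 (Pdk1 and Pgls) were lower in 8 of 8, which is 52.9% beside a background of 21.6% of all genes tested (10.3% higher and 11.2% lower). The 16 were Hk1, Hk2, Hk3, Pfkl, Pfkp, Aldoa, Aldoc, Pgk1, Pgam1, Bpgm, Eno1, Ldha, Pdk3, G6pdx, Pgd and Taldo1. The log2 difference within a mouse ran from 0.71 to 1.29 for Hk3, from 0.29 to 1.08 for Hk1 and from 0.35 to 0.70 for Pdk3, and from -0.74 to -0.22 for Pgls. Within a genotype, 11 members were without overlap and higher in MPP3 in WT (background 7.6%) and 10 in KO (background 8.6%), and 1, Pgls, was without overlap and lower in each (backgrounds 8.27% and 8.6%).

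**Figure D4:**
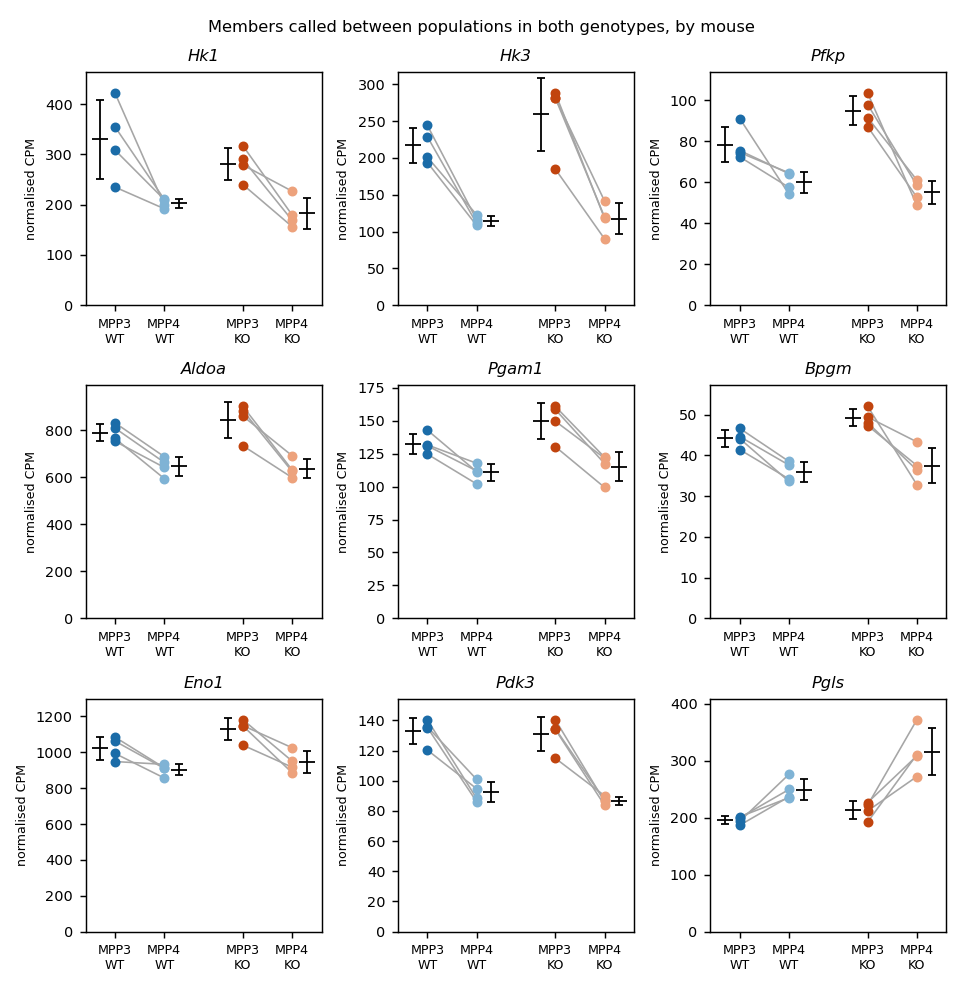
Normalised CPM (axis from 0) of the 9 members called in both genotypes, with 1 point per library, grey lines joining the MPP3 and MPP4 libraries of a mouse, and black marks for the mean ± SD of 4 libraries. All lines fall from MPP3 to MPP4 except those of Pgls, which rise in 8 of 8 mice.

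Markers of other cell types also differed between the populations. Of 6 mast cell and basophil markers, 5 were tested and all 5 were higher in MPP3 in both genotypes, and none was at 0 in all libraries. Their summed level was 170 to 299 CPM in MPP3 WT, 168 to 383 in MPP3 KO, 19.2 to 29.4 in MPP4 WT and 23.1 to 36.4 in MPP4 KO. The 5 megakaryocyte markers (3 tested, 2 called higher in WT and 3 in KO) summed to 91.8 to 146 CPM in the MPP3 groups and 13.7 to 27.6 in the MPP4 groups. The 8 markers of mature neutrophils (4 tested, 1 called higher in each genotype) summed to 9.76 to 76.6 CPM in MPP3 and 1.72 to 15.6 in MPP4. Of the T and NK cell markers, Nkg7 was higher in both genotypes (416 to 573 CPM in MPP3 WT, 225 to 324 in MPP4 WT), while Cd3d, Cd3g, Cd8a and Trac were at no more than 2.61 CPM in any library. B and plasma cell markers (6 tested) were called in both directions, 2 higher and 1 lower in WT and 1 higher and 2 lower in KO, as were those of monocytes and macrophages (4 tested), 1 higher and 1 lower in WT and 1 higher and 2 lower in KO. Hk3 and Pfkp are also known in myeloid cells and platelets, and the part of these cell types in the members' differences was not tested.

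The comparison of the labelled genotypes asked whether targeting Ebf1 moved these genes. None of the 34 members was called by edgeR in MPP3 (4 had an unadjusted p under 0.05) or in MPP4 (also 4), beside backgrounds of 0.0676% and 0.0169% called and 10.5% and 12.8% with an unadjusted p under 0.05. DESeq2 called 0 members in MPP3 and 2 in MPP4, beside 1.82% and 2.58% of all genes. The median log2 fold change (KO over WT) was 0.06 in MPP3 and -0.02 in MPP4, beside -0.01 over all genes in both.

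The 2 members nearest the threshold were in MPP4. Slc2a3 was at 69.2 to 89.1 CPM in the MPP4 libraries labelled WT and at 60.1 to 65.5 in those labelled KO, and the groups did not overlap (1 of 34 members, beside a background of 4.44% lower in KO). Its log2 fold change was -0.36 ± 0.09 (edgeR FDR 0.147), and it was called by DESeq2 (adjusted p 0.0262) and with sex as a term (FDR 0.0793). Over 33 alternatives the FDR lay between 0.0262 and 0.423. Pgls was at 250 ± 19.1 (SD, n = 4) CPM in MPP4 WT and 316 ± 41.4 in MPP4 KO, a log2 fold change of 0.34 ± 0.08 (edgeR FDR 0.159). It was called by DESeq2 (adjusted p 0.0189), with sex as a term (FDR 0.0822), without MPP4 KO replicate 4 (FDR 0.0662) and without mouse KO4 (FDR 0.0872), and its FDR lay between 0.0189 and 0.501 over 33 alternatives.

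In MPP3, the lowest FDR was 0.306, for Pfkp (0.28 ± 0.10 on the log2 scale, 78.3 ± 8.58 CPM in WT and 94.9 ± 7.19 in KO). Hk3 had 0.26 ± 0.14 (FDR 0.566) and was called without mouse KO1 (0.39 ± 0.09, FDR 0.0865), whose MPP3 library had the lowest Hk3 level of the KO mice. Bpgm was the 1 member without overlap and higher in MPP3 KO (0.15 ± 0.09, edgeR FDR 0.606, beside a background of 2.17% higher in KO). The 95% intervals of all 34 members lay between -0.54 and 0.81 in MPP3 and between -0.56 and 0.65 in MPP4, the widest being those of low genes such as Eno3.

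**Figure D5:**
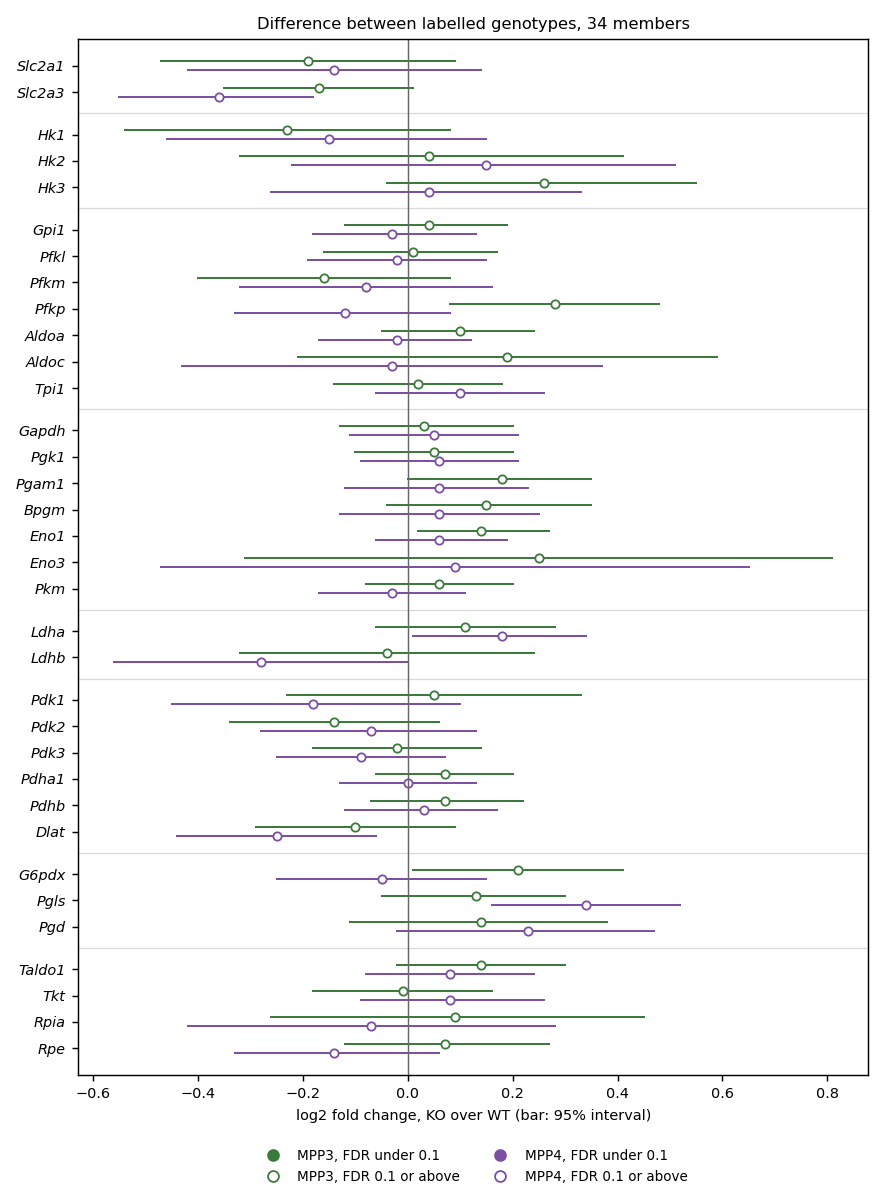
Log2 fold change of KO over WT, by label, for the 34 tested members in MPP3 (green) and MPP4 (purple), ordered by role, with 95% intervals of the edgeR fit. No point is filled, since none has an FDR under 0.1, and the lowest are those of Slc2a3 (-0.36) and Pgls (0.34) in MPP4.

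Markers differed beside this comparison too. The 9 B cell and plasma cell markers summed to 180.5 to 604 CPM in MPP3 WT and 80.8 to 162 in MPP3 KO, and to 155 to 234 in MPP4 WT and 131 to 199 in MPP4 KO. The 5 monocyte and macrophage markers summed to 52.8 to 126 CPM in MPP3 WT and 84.5 to 274 in MPP3 KO, and in MPP4, where Slc2a3 and Pgls came nearest the threshold, to 44.3 to 51.4 in WT and 66.9 to 113 in KO without overlap. By edgeR none of the 6 and 4 tested markers of these lists was called between genotypes. The monocyte receptor gene Csf1r, higher in KO by 0.98 ± 0.20 in MPP4 (edgeR FDR 0.11), was called there by limma voom with the mouse as a block (FDR 0.0553) and by DESeq2 (adjusted p 0.000385). In MPP3, DESeq2 called Csf1r (log2 fold change 0.76, adjusted p 0.0185), Cd79a (-3.02, adjusted p 0.0657) and Mzb1 (-2.87, adjusted p 0.0185). In MPP4 the sort marker Kit was called lower in KO (-0.42 ± 0.07, edgeR FDR 0.056). The part of these shifts in the members' values was not tested. Ages and genotypes were not balanced, with 11 and 12 weeks in WT and 9 to 11 weeks in KO.

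The interaction tested whether the population difference itself depended on the label. None of the 34 members, and 0 of all 11831 genes, was called by edgeR, while 1 member and 270 genes (2.28%) had an unadjusted p under 0.05. DESeq2 called 8 genes (0.0678%), and the fit with the mouse as a block called 2 (0.0169%), none of them a member. The 1 member was Pfkp, whose difference was wider in KO by 0.40 ± 0.14 on the log2 scale (95% interval 0.11 to 0.69, edgeR FDR 1.0, and 0.768 with the block). G6pdx had an interaction of 0.26 (-0.03 to 0.54) and Pgls of -0.21 (-0.47 to 0.04), so the calls made in a single genotype were not shown to differ between genotypes.

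Of 70 related genes on 7 lists, 47 were tested, and 9 (19.1%) were called between populations in WT and 11 (23.4%) in KO, near the 15.1% and 17.9% of all genes tested. Among regulators of fructose bisphosphate and gluconeogenesis, 2 of 9 tested genes were higher and 1 lower in both genotypes. These were G6pc3, a widely expressed glucose phosphatase (0.60 ± 0.09 in WT, edgeR FDR 0.000249, and 0.53 ± 0.09 in KO, FDR 0.000649), Fbp1, which reverses the phosphofructokinase step (0.64 ± 0.19 and 1.00 ± 0.19), and Pfkfb4, which sets the phosphofructokinase activator and was lower in MPP3 (-0.62 ± 0.20 and -0.71 ± 0.20). G6pc3 was at 143 ± 17.5 (SD, n = 4) CPM in MPP3 WT and 94.5 ± 3.21 in MPP4 WT.

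Among other pentose phosphate and ribose genes, 3 of 7 tested were called higher and 1 lower in both genotypes. Of all genes tested, 6.8% were called higher and 8.33% lower in WT, and 8.71% and 9.18% in KO. The 2 phosphoribosyl pyrophosphate synthetases, which hand ribose phosphate to nucleotide synthesis, went in opposite directions: Prps1 was higher in MPP3 (0.20 ± 0.06 in WT and 0.30 ± 0.06 in KO) and Prps2 lower (-0.36 ± 0.09 and -0.31 ± 0.09). Prps1 was at 211 ± 10.2 CPM in MPP3 WT and 183 ± 10.4 in MPP4 WT, and Prps2 at 119.7 ± 4.78 and 154 ± 13.1. The phosphoglucomutases Pgm1 (0.28 ± 0.08 and 0.30 ± 0.08) and Pgm2 (0.28 ± 0.10 and 0.33 ± 0.10) were higher.

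HIF is a known activator of glycolytic genes. Its subunit gene Hif1a had log2 fold changes of 0.01 (95% interval -0.20 to 0.22) in WT and 0.07 (-0.14 to 0.28) in KO. Of 11 tested HIF targets outside glycolysis, 2 were called in both genotypes, the stress gene Ndrg1 (0.75 ± 0.16 and 0.88 ± 0.16) and the oxidoreductase gene Ero1l (0.47 ± 0.12 and 0.67 ± 0.12), both higher in MPP3. That is 18.2% in each genotype, near the 15.1% of all genes tested in WT and 17.9% in KO. Among 7 tested genes of oxygen sensing, Egln1, a prolyl hydroxylase that marks HIF for decay, was called lower in MPP3 in KO (-0.93 ± 0.17, edgeR FDR 0.00125). Of 7 tested genes of pyruvate entry into mitochondria, the carrier subunit Mpc2 was called higher in MPP3 in KO (0.26 ± 0.08, FDR 0.0473). For oxygen sensing and for pyruvate entry, 14.3% were called in KO, below the 17.9% of all genes. None of the 4 tested other glucose transporters or the 2 tested other glycolytic isoenzymes was called. Between the genotypes edgeR called 0 related genes, where 3 in MPP3 and 4 in MPP4 had an unadjusted p under 0.05 and the lowest FDR was 0.143, for Egln1 in MPP4 (log2 change of 0.73 ± 0.17). DESeq2 called Egln1 there (adjusted p = 0.0137) and none of the other related genes to which it gave an adjusted p in either population.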

How the data were processed

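RNA-seq libraries of sorted MPP3 and MPP4 cells of 4 WT and 4 KO mice were read in pairs of 100 bases. The deposited files hold raw counts per gene, which the authors made with STAR (2.7.3a) and featureCounts (2.0.0) on mm10, per the labels. The use of strand and of reads matching several genes is not given in the sources used here. The deposited table of normalised values was not used. Counts were fitted in edgeR (4.0.16, R 4.3.3) with TMM factors, 1 mean for each of the 4 groups and quasi-likelihood F-tests. A gene was kept if at least 1 group averaged more than 100 counts (11831 genes), and p-values were adjusted by Benjamini-Hochberg over all of them, with calls at an FDR under 0.1. Levels are counts scaled to the normalised library size (CPM), with exon lengths from the GENCODE annotation of GRCm38. SE is the standard error of the fit and SD the spread over 4 mice. P-values of the main fit rest on the spread between libraries within the groups, pooled over the 4 groups and without the pairing by mouse. With the mouse as a block, those of the population differences rest on the spread of the differences within mice. Libraries held 24823708 to 48703193 counts.

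MPP3 and MPP4 libraries of a mouse deviated together from their group means (r of 0.274 to 0.528 in 8 of 8 mice, each above that with any other mouse of the genotype), so the mouse was used as a block in a second fit. Alternatives were DESeq2 (1.42.0), its size factors, other filters, sex or age as a term, only the 8 libraries compared, and leaving out each library or mouse. In another, rows whose symbols name them as copies of a member were added to it. That left out most of the near-identical copies of Gapdh, so the effect of all such copies was not tested. For the genotypes, the block was a random term in limma voom (3.58.1). All members are named, with every library's value for those called in both genotypes, those of lowest FDR and the Pdk family. Members and lists were chosen with earlier results of these data known. The main fit was also run on simulated counts, drawn independently for each library, so the pairing within mice was not part of that check.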

Additional observations from a re-analysis of the deposited data

Results flagged for a closer look

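In 4 of 136 groups of 4 libraries, 1 library lay far from the other 3 by Dixon's criterion, and chance gives about 1 in 20. Hk3 was at 184.9 normalised CPM in MPP3 KO replicate 1, below the other 3 (281.5 to 288 CPM). Pfkp was at 91.0 CPM in MPP3 WT replicate 1, above the others (72.3 to 75.4 CPM). Ldha was at 1002.2 CPM in MPP4 WT replicate 4, above the others of its group. Pdha1 was at 181.7 CPM in MPP4 WT replicate 3, below the others, within a group that spanned only 181.7 to 187.5 CPM.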

How the results depend on the processing

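No member changed direction in a way that reversed a call under the 33 alternatives run for each. In WT, the calls of Hk1, Hk3, Aldoa, Pdk3 and Pgls passed under all 33, and in KO those of Hk1, Hk3, Pfkp, Aldoa, Pgam1, Bpgm, Eno1, Pdk3 and Pgls. The 12 members called in WT became 6 when all genes with at least 1 count were tested. There, 5.65% of all genes were called, beside 15.1% in the main fit. They became 6 without mouse WT1, 6 without mouse WT3, 6 without mouse WT4 and 7 at an FDR under 0.05. That limit was passed by 1318 of all 11831 genes. Without 1 library the WT count ranged from 7 to 14 (7 without MPP4 WT replicate 3 or 4), and without 1 mouse from 6 to 14. The WT calls lost with all genes tested were those of Hk2, Pgam1, Bpgm, Eno1, Pdk1 and Pgd. The 13 called in KO became 21 with the mouse as a replicate block (28.3% of all genes were called, beside 17.9%). They became 12 to 16 without 1 library and 10 to 14 without 1 mouse. For KO against WT in MPP3, 0 members became 1 without mouse KO1. In MPP4, 0 members became 2 by DESeq2 (2.58% of all genes). With sex as a term they became 2 as well (1.55% of all genes, beside 0.0169% in the main fit). The count in MPP4 was 1 without mouse KO4 and 0 to 1 without 1 library (1 without MPP4 KO replicate 4). Over all genes, limma voom with the mouse as a random block called 6 in MPP3 and 34 in MPP4, none of them a member. The interaction count was 0 throughout. Beyond the construction of each alternative, the cause was not tested.

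Isoenzyme shares moved with the length used. Averaged over the 16 libraries, without length Slc2a3 was 65.8% of its family (48.4% with it), Hk3 37.6% (56.8%), Pfkp 14.5% (6.96%), Eno1 99.0% (97.1%), Ldhb 10.5% (19.7%) and Pdk3 30.9% (50.8%). With the length of the longest principal transcript, an alternative chosen after seeing the data, they were 61.4% for Slc2a3, 42.8% for Hk3, 12.8% for Pfkp, 98.8% for Eno1, 13.7% for Ldhb and 0.869% for Aldoc (1.42% with the union of exons). Eno2, at 4 to 45 counts, was too low to be tested.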
